A study of Mus musculus with 41 samples.

Results

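RNA of 9 mouse mesothelioma tumors was compared with RNA of 6 cell lines that had been grown from such tumors. The lines were the RNA columns that carry a line name (JB81, JB91 and JB97 of the genotype called BNC, and JB84, JB87 and JB93 of the genotype called NC). The tumors were the remaining 9 RNA columns. The sample records hold 5 BNC and 4 NC tumors, but nothing ties a tumor column to its record, so the tumors were taken as 1 group. These 15 libraries are all of the RNA libraries among the 41 samples of the series, and 14383 of 27197 listed genes had enough reads to be tested.

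BNC stands for loss of Bap1, Nf2 and Cdkn2ab, and NC for loss of Nf2 and Cdkn2ab with functional Bap1. Bap1 is a deubiquitinase of the polycomb system, Nf2 encodes merlin of the Hippo pathway, and the Cdkn2ab alleles lack Ink4a and Ink4b in the germline and are conditional for p19Arf. Young adult mice of a mixed background drank cyclosporine A and were given adenovirus with Cre recombinase under the CMV promoter into the pleural space, so Cre could act in any cell type the virus reached. The lines were outgrowths of chopped tumor pieces in DMEM/F12 with Glutamax, hydrocortisone, murine EGF, insulin-transferrin-selenium and fetal calf serum, and the study describes its lines as early passage.

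A solid tumor is a tissue. RNA from a whole piece holds messages of tumor cells, leukocytes, vessels, fibroblasts and whatever normal tissue was cut along, whereas serial passage keeps the cells that attach to plastic and divide. Medium with serum, insulin and EGF drives cells through the cycle, and dividing cells make ribosomes, lipids and amino acids for new mass.

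Differences are given as log2 of tumor over line or of line over tumor, with the standard error, and levels are counts scaled to the depth of each library (CPM) after TMM scaling, over 9 tumors and 6 lines. A gene was called when the adjusted p was under 0.01 (edgeR's quasi-likelihood test, Benjamini-Hochberg adjustment over all genes tested) and the fold was above 2. In all, 5046 genes were called, 35.1% of those tested. Of these, 3266 were higher in tumors (22.7%) and 1780 were higher in lines (12.4%). All tumors lay above all lines in 16.8% of the tested genes, and all lines lay above all tumors in 9.59%. The median log2 difference over all genes tested was 0.17 in the tumor direction. In 22.9% of the tested genes the 95% interval of the difference lay within a 2-fold change in either direction.

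The differences of greatest size were one-sided. More than 16-fold differences were fitted for 1792 called genes higher in tumors and for 39 called genes higher in lines. Of the tested genes, 928 had at most 3 counts in every line, and 5 had at most 3 counts in every tumor. The filter passed those 928 on tumor reads alone, and 923 of them were called, so testing nearly fixed their call. List counts that rest on such genes were thus largely set by the filter. Over all listed genes, tested or not, those with at most 3 counts in every line took between 1.42% (B28) and 10.5% (B2) of a tumor's counts. They took at most 0.0174% of the counts of a line.

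**Figure D1:**
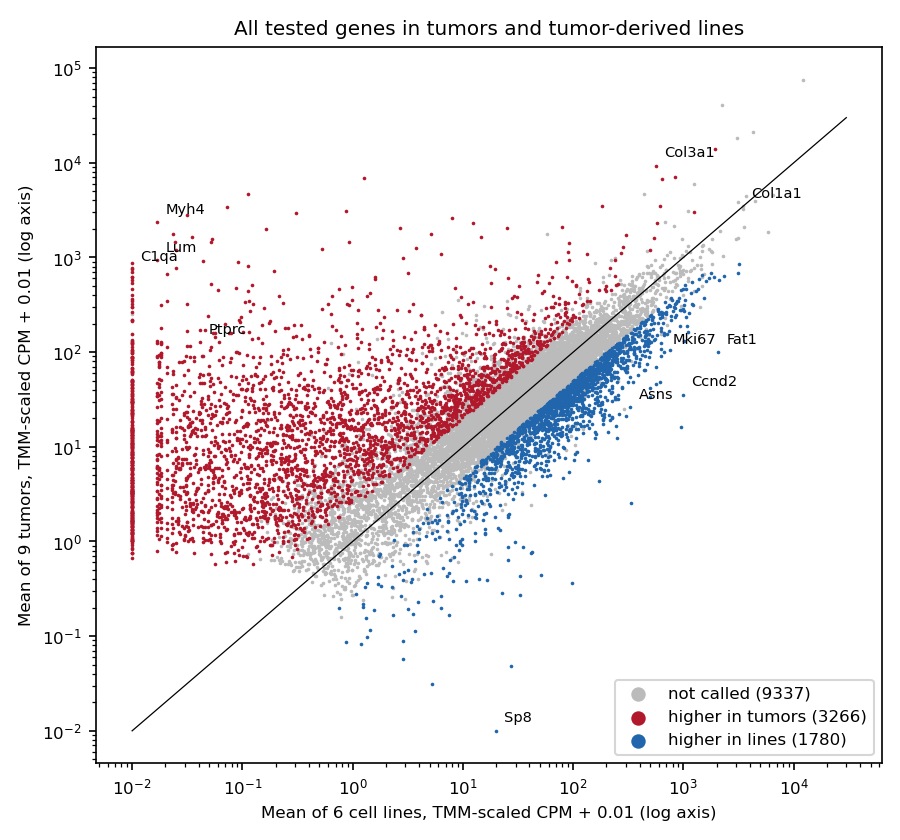
Each point is 1 of the 14383 tested genes, with the mean level of the 6 lines on the x axis and the mean level of the 9 tumors on the y axis, both in TMM-scaled CPM on log axes; the line marks equal levels. The 3266 genes called higher in tumors include many with almost no reads in lines, at the left edge, whereas the 1780 called higher in lines mostly have reads in both.

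Libraries held between 8158740 (B1) and 23936922 (JB81) counts. Tumor B1 stood apart, with 24.7% of its counts on Gm42418 and 17.3% on mitochondrial genes, against at most 1.40% mitochondrial counts in a line. 5 tumors (B1, B2, B13, B19 and B45) held muscle or lung RNA, given by summed levels of over 10000 CPM for skeletal muscle or lung epithelium genes. Without these 5 tumors, 1843 genes were called higher in tumors and 879 higher in lines, in a comparison of 4 tumors with 6 lines. The lines JB81 and JB91, and the lines JB84 and JB93, resembled each other far more than the other lines did (chi-square per degree of freedom of 14.3 and 20.9, against 107 to 435 for the other pairs). Nothing in the labels says whether such a pair came from 1 mouse, so p-values measure the spread between these libraries. With each pair summed to 1 line, 2605 and 1708 genes were called. All tumor columns shared 1 number as prefix of their names, and all line columns carried other prefixes. The labels do not say what the prefix stands for. A batch that it may mark cannot be told apart from tissue source.

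Of the genes targeted in the mice, Bap1 was read at 44.6 to 75.2 CPM in tumors, 36.8 to 41.0 CPM in BNC lines and 56.7 to 60.3 CPM in NC lines. Reads of exons outside the floxed part still count toward the gene. Nf2 did not pass the test (0.38 ± 0.19 higher in lines, adjusted p = 0.0965, edgeR). Cdkn2a had 0.508 to 7.91 CPM in tumors (median 3.86) and 0.0904 to 0.549 CPM in lines (median 0.242), a log2 difference of 3.52 ± 0.70 (adjusted p = 0.00061, edgeR). Cdkn2b was under the level needed for the test.

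Leukocyte genes were nearly absent from the lines. Ptprc, which encodes the pan-leukocyte phosphatase CD45 (GRCm38, chr1:138062861-138175708), had 81.0 CPM in the lowest, 105 CPM in the median and 220 CPM in the highest tumor. The 6 lines held 3 Ptprc reads in all, between 0 and 0.077 CPM each. The ratio of the means was 5067, with a 95% counting interval of 1734 to 24570 (adjusted p = 2.34e-09, edgeR). Every tumor was thus above every line by a wide gap, and the same held for Adgre1, which encodes the macrophage antigen F4/80 (chr17:57358691-57483527). Adgre1 was read at 44.3, 118 and 240 CPM in the lowest, median and highest tumor and with 1 read in 1 of 6 lines (adjusted p = 8.37e-09, edgeR). In bulk samples, fewer cells of a type and less RNA per cell cannot be told apart.

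The 12 genes of a pan-leukocyte list included 11 that were higher in tumors (10 without the 5 tumors rich in muscle or lung RNA), against 22.7% of all tested genes. Arhgdib, a regulator of small GTPases in blood cells, was the exception, with 95.1 to 249 CPM in tumors and 36.7 to 225 CPM in lines (log2 difference 0.36 ± 0.38, adjusted p = 0.436, edgeR). Of the 11 called genes, 8 had at most 3 counts in every line, so the filter passed those on tumor reads alone. The macrophage list was called throughout: 23 of 23 genes were higher in tumors, against 22.7% of all tested genes. In all 23 genes of the list every tumor was above every line, against 16.8% of all tested genes. Its median log2 difference was 10.66 as fitted, or 9.0 with genes at the floor in lines set to their lower bound, against 0.17 over all genes tested. In 13 of the 23 genes every line had at most 3 counts, so the filter passed those on tumor reads alone.

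C1qa, a chain of complement C1q made by macrophages (chr4:136895917-136898803), had no read in any line and 380 to 1369 CPM in tumors (median 611), which made it at least 3258-fold higher (adjusted p = 7.3e-08, edgeR). Cd68, a lysosomal glycoprotein of macrophages that other cells also make at low levels, was not absent from culture. Its level was 65.1, 94.6 and 212 CPM in the lowest, median and highest tumor and 2.39, 3.23 and 4.11 CPM in the lowest, median and highest line (log2 difference 5.10 ± 0.32, adjusted p = 1.67e-08, edgeR). Lyz2, lysozyme of myeloid cells, ranged from 220 to 3946 CPM in tumors and from 0 to 38.4 CPM in lines. Its difference of 7.52 ± 1.56 did not pass without the 5 tumors rich in muscle or lung RNA. The macrophage list summed to 3168 CPM (B28) to 11973 CPM (B14) in tumors and to 7.34 to 45.7 CPM in lines, so the least macrophage-rich tumor was far above the highest line.

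Antigen presentation by class II MHC was called as a whole, with 7 of 7 genes higher in tumors, against 22.7% of all tested genes. Of these 7, 4 had at most 3 counts in every line, so the filter passed those on tumor reads alone. H2-Aa, the class II alpha chain, had 122, 577 and 1314 CPM in the lowest, median and highest tumor and no read in any line, which set a lower bound of 2480-fold on its difference (adjusted p = 1.41e-06, edgeR). Cd74, the invariant chain, was read at 274 to 3137 CPM in tumors and at 0 to 11.2 CPM in lines. Its highest values in lines belonged to JB81 and JB91. The summed class II level was 12.9 CPM in JB81 and 14.7 CPM in JB91, and at most 2.91 CPM in the other 4 lines.

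Lymphocyte genes were lost as well but were unequal among tumors. All 18 tested T cell genes were higher in tumors, and in 16 of them every tumor lay above every line. Over all tested genes these shares were 22.7% and 16.8%. Of these 18, 15 had at most 3 counts in every line, so the filter passed them on tumor reads alone. Cd3e, a chain of the T cell receptor complex (chr9:44998740-45009627), was at 0.408 CPM in B28, 7.56 CPM in the median tumor and 46.3 CPM in B27, with no read in any line (at least 49.7-fold higher, adjusted p = 0.000323, edgeR). Foxp3, the regulatory T cell factor, had 0.227 to 3.23 CPM in tumors and 2 reads over the 6 lines. Without the 5 tumors rich in muscle or lung RNA, 9 of 13 T cell genes still tested passed, Cd3e and Foxp3 were too low to be tested, and the remaining 4 tumors include B28 and tumor-22 with the T cell list at 35.9 and 44.8 CPM. Of 9 tested B cell and plasma cell genes 9 were higher in tumors, and 7 of them had at most 3 counts in every line. Igkc, the kappa light chain constant region, had 6.59 to 541 CPM in tumors and no read in a line. NK and cytotoxic genes (8 of 9), dendritic cell genes (5 of 6) and mast cell genes (7 of 8) were mostly called too. Without the 5 tumors rich in muscle or lung RNA these counts were 5 of 6, 2 of 4 and 3 of 5, and with line pairs summed the mast cell count was 5 of 8. Among the genes called with all libraries, 8 NK and cytotoxic, 4 dendritic cell and 4 mast cell genes had at most 3 counts in every line. The filter passed those on tumor reads alone.

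All 5 tested neutrophil genes were higher in tumors, with every tumor above every line, against 22.7% and 16.8% of all tested genes. A further 7 genes of the list had too few reads. All 5 had at most 3 counts in every line, so the filter passed them on tumor reads alone. All 5 calls held on leaving out any 1 tumor, 4 held on leaving out any 1 line, 3 with line pairs summed, and 2 with the lines of either genotype alone. S100a9, a subunit of calprotectin, was at 2970 CPM in B27, at 6.58 CPM in the median tumor, at 0.725 CPM in the lowest and at 0 in every line. It was at least 1516-fold higher by the tumor mean, but its call (adjusted p = 0.00535, edgeR) did not hold with the line pairs summed. The whole list summed to 5422 CPM in B27 and to 38.7 to 606 CPM in the other 8 tumors.

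**Figure D2:**
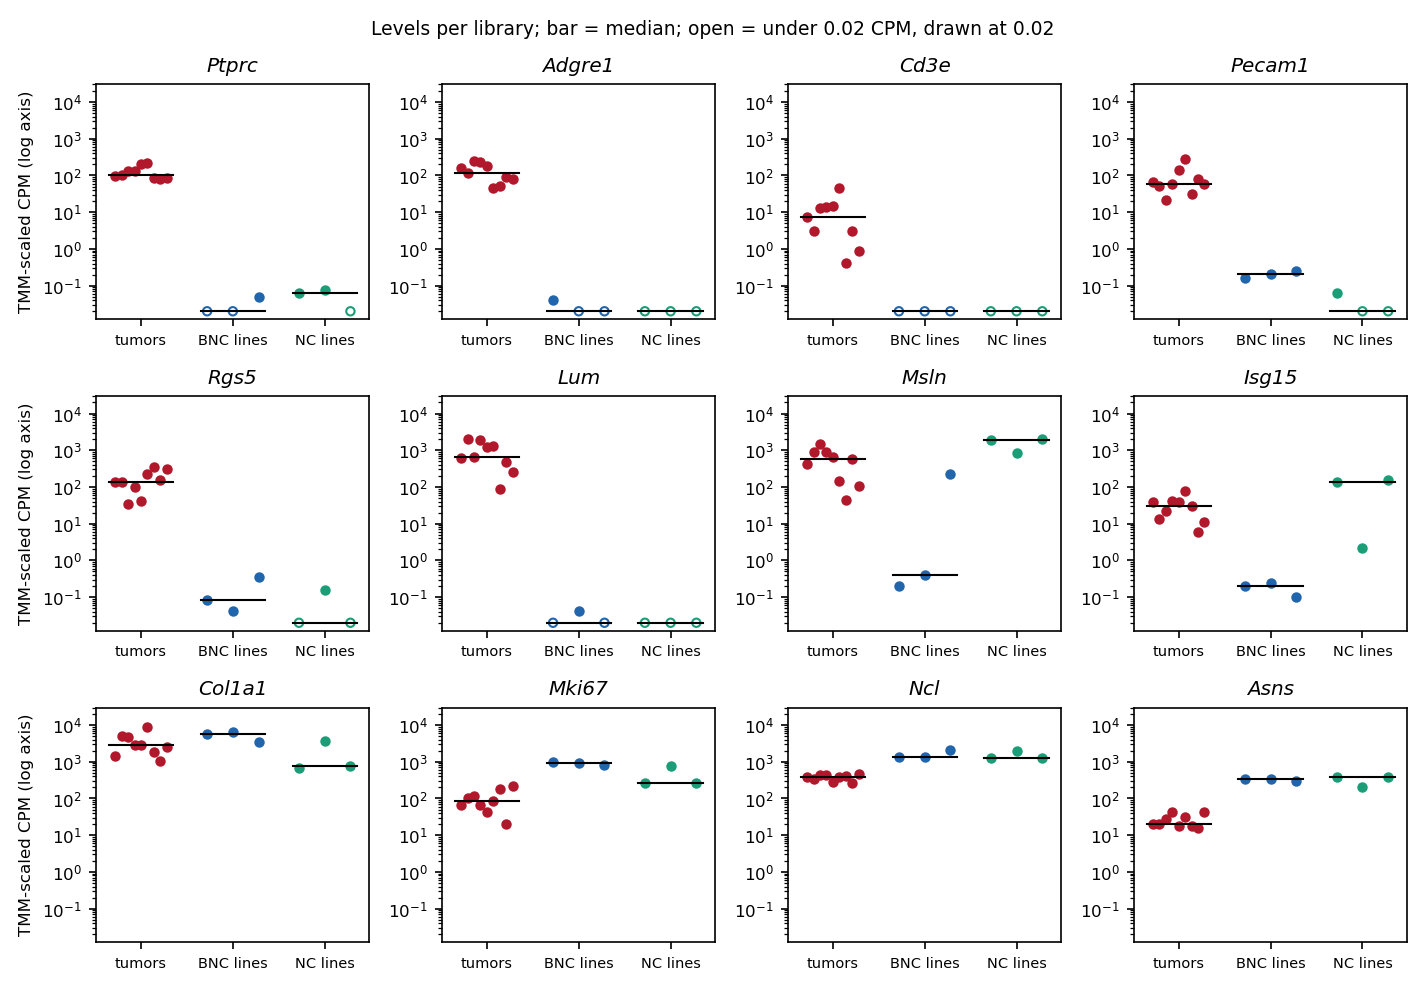
Levels of 12 genes in TMM-scaled CPM (log axis) in each tumor, BNC line and NC line; the bar is the group median and open points lie at the lower end of the axis. Ptprc, Adgre1, Cd3e, Pecam1, Rgs5 and Lum lie in the tumors only or nearly so, Mki67, Ncl and Asns lie higher in every line than in any tumor, and Msln, Isg15 and Col1a1 split the lines among themselves.

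A promoter of Ptprc serves as an example of the sequence at a leukocyte gene. Factors of the Ets family such as PU.1, which is active in myeloid and B cells, bind DNA around the core GGAA. The promoter of Ptprc in RefSeq (GRCm38.p6, chr1:138175256-138175555, minus strand, from 250 bases before to 50 bases after the start site, 1 of 2 listed promoters of the gene) is shown with AGGAAGT, on either strand, in capitals, because this gene marks all leukocytes.
Ptprc: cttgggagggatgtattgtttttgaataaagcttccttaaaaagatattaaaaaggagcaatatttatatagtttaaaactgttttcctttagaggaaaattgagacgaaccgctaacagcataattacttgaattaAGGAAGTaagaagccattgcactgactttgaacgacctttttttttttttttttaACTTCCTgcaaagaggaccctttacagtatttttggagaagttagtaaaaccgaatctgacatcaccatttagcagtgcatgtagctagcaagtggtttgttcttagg
Among pan-leukocyte genes with a promoter entry, 5 of 10 held AGGAAGT in a listed promoter, against 10.7% of all 27025 genes with an entry. Between the 2 Ptprc promoters, the one shown was chosen by its number of matches. Such a match is a description of letters and not of binding.

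Vessel genes were lost except for a few receptors. Of 19 blood endothelium genes 14 were higher in tumors, against 22.7% of all tested genes. Of the 14, 10 had at most 3 counts in every line, so the filter passed those on tumor reads alone. Without the 5 tumors rich in muscle or lung RNA 14 were called as well. The median log2 difference of the list was 9.0 (6.14 with genes at the floor at their bound). Pecam1, the junction protein CD31 (chr11:106654217-106750628), was read at 22, 59.5 and 283 CPM in the lowest, median and highest tumor and at 0, 0.114 and 0.250 CPM in the lowest, median and highest line (log2 difference 9.43 ± 0.88, adjusted p = 7.8e-07, edgeR). Cdh5, the cadherin of endothelial junctions, had 20.4 to 174 CPM in tumors and 7 reads in all lines together, a ratio of 1239 with a 95% counting interval of 601 to 3081. In both genes no line came near a tumor.

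Kdr, the main VEGF receptor, went another way. It was at 15.9, 28.5 and 89.2 CPM in the lowest, median and highest tumor and at 0.0411, 27.6 and 57.4 CPM in the lowest, median and highest line (log2 difference 0.58 ± 0.93, 95% interval -1.39 to 2.56, adjusted p = 0.616, edgeR). The NC lines JB84, JB93 and JB87 read Kdr at 57.4, 56.4 and 48.3 CPM, within the range of the tumors. The BNC lines JB81 and JB91 read it at 0.165 and 0.0411 CPM, and JB97, also BNC, lay below the lowest tumor too. The difference between BNC and NC lines was not tested. Flt1, a decoy receptor for VEGF, did not pass the test either (1.0 ± 0.68, adjusted p = 0.225, edgeR), and neither did Eng, Esam and Ptprb. Of 6 lymphatic genes 5 were higher in tumors, among them Lyve1, a hyaluronan receptor of lymphatic vessels and some macrophages (5.54 to 90.6 CPM in tumors, 0 to 0.443 CPM in lines, log2 difference 8.43 ± 0.92, adjusted p = 3.48e-06, edgeR).

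Mural cells wrap vessels, and 6 of 12 tested pericyte and smooth muscle genes were higher in tumors, against 22.7% of all tested genes. Rgs5, a pericyte regulator of G protein signaling, was at 34.7 to 343 CPM in tumors (median 133) and at 0 to 0.349 CPM in lines (log2 difference 10.55 ± 0.91, adjusted p = 4.06e-07, edgeR). Cspg4, the NG2 proteoglycan of pericytes, differed by 8.38 ± 0.57 (15.6 to 61.3 CPM in tumors, 0 to 0.200 CPM in lines). Myh11, Kcnj8, Abcc9 and Des were the other called genes, and Acta2, Tagln, Cnn1, Notch3, Pdgfrb and Mcam did not pass the test. Des, the intermediate filament of all muscle, was at 118, 1768 and 12163 CPM in the lowest, median and highest tumor.

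Acta2, smooth muscle actin, lay above all tumors in some lines and below all tumors in others. It was at 48.0 to 907 CPM in tumors (median 199) and at 0.695 to 3004 CPM in lines (median 1387). It was 2.24 ± 1.10 higher in lines on the log2 scale (adjusted p = 0.0946, edgeR). The lines were far apart: Acta2 was at 2789 CPM in JB81, 3004 in JB91, 2087 in JB97 and 687 in JB87, but at 0.695 in JB84 and 1.49 in JB93. In JB84 and JB93, 11 of the 12 mural genes lay below all tumors, against 5 to 8 in the other lines.

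Of 17 fibroblast and matrix genes 13 were higher in tumors, against 22.7% of all tested genes. The count was 9 without the 5 tumors rich in muscle or lung RNA and 9 with line pairs summed. The median log2 difference of the list was 4.59. Lum, the collagen-binding proteoglycan lumican (chr10:97565128-97572703), was at 90.4, 655 and 1995 CPM in the lowest, median and highest tumor and had 1 read in 1 line (adjusted p = 4.65e-08, edgeR). Dcn, decorin, was read at 177 to 3244 CPM in tumors and at 2.35 to 49.3 CPM in lines (log2 difference 6.83 ± 0.97, adjusted p = 3.98e-05, edgeR). Col3a1, collagen III (chr1:45311538-45349706), was at 2728, 8866 and 17837 CPM in the lowest, median and highest tumor and at 81.2, 704 and 911 CPM in the lowest, median and highest line (log2 difference 4.05 ± 0.73, adjusted p = 0.000273, edgeR). These 3 matrix genes did not overlap between the groups.

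Col1a1, the main chain of collagen I, was at 1078 to 8897 CPM in tumors (median 2856) and at 658 to 6289 CPM in lines (median 3584). Its log2 difference was 0.02 ± 0.56, with a 95% interval of -1.18 to 1.21 (adjusted p = 0.983, edgeR), so the interval still holds a 2-fold difference in either direction. Col1a2, its partner chain, differed by 0.28 (adjusted p = 0.721, edgeR). Ogn, the small proteoglycan osteoglycin, and Gsn, the actin-severing protein gelsolin, did not pass the test either (adjusted p = 0.0759 and 0.0924, edgeR). Postn, the matricellular protein periostin, was called (4.57 ± 1.29, adjusted p = 0.00713, edgeR), but the call was lost on leaving out any 1 of B1, B19, JB81, JB87 or JB91.

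**Figure D3:**
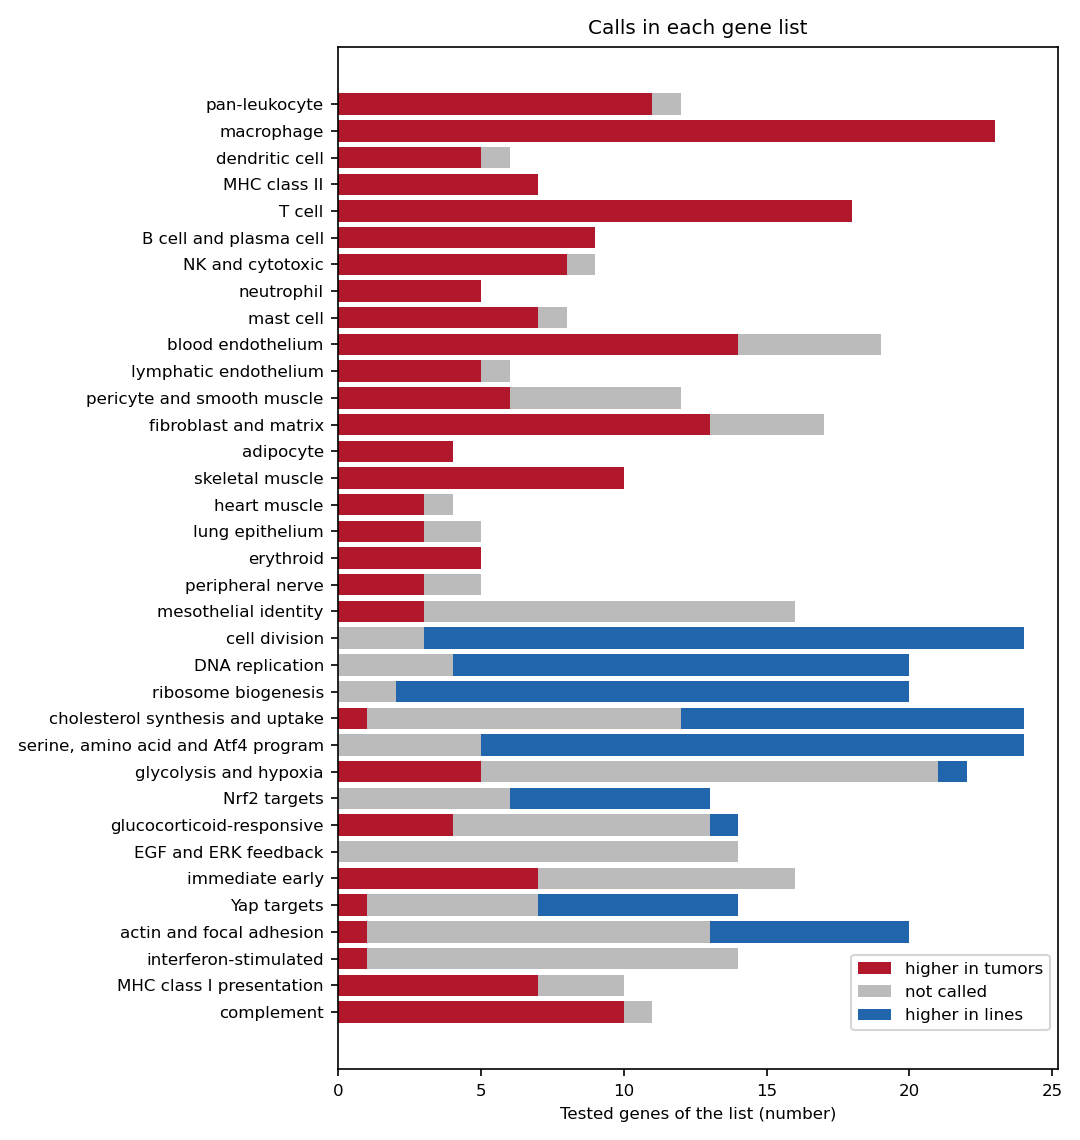
Number of tested genes in each gene list (x axis) that were called higher in tumors, called higher in lines, or not called. Leukocyte, vascular and neighbouring tissue lists hold no gene called higher in lines, and cell division, DNA replication, ribosome biogenesis and amino acid lists hold none called higher in tumors.

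Genes of tissue next to the tumor were high in single tumors. All 10 skeletal muscle genes were higher in tumors, against 22.7% of all tested genes. In 6 of them every line had at most 3 counts, so the filter passed those on tumor reads alone. All 10 genes were also called after the 5 tumors rich in muscle or lung RNA were left out. Their sum was 60074 CPM in B1, 61845 in B19, 61963 in B45, 11831 in B13 and between 258 and 3671 CPM in the other 5 tumors, against 1.14 to 5.74 CPM in lines. Ckm, muscle creatine kinase, ranged from 19.6 to 9718 CPM in tumors and had 2 reads over all lines (adjusted p = 4.48e-05, edgeR). Myh4, a fast myosin heavy chain, ranged from 0.866 to 13109 CPM in tumors and had 1 read in 1 line. Further muscle genes stood among the largest folds, namely Myh2, Mybpc1, Xirp2 and Pvalb, with no read in any line, next to C1qb and C1qc, and Acta1 and Atp2a1 stood among the largest differences in CPM. Pvalb, parvalbumin of fast muscle, ranged from 0.551 to 2313 CPM in tumors, and its call was lost with line pairs summed. The mitochondrial gene mt-Nd4 was at 806 to 30822 CPM in tumors and 543 to 769 CPM in lines (3.39 ± 0.79 higher in tumors, adjusted p = 0.00207, edgeR), a call also lost with line pairs summed.

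Lung genes came from B2 for the most part. Scgb1a1, the secretoglobin of airway club cells, was at 30735 CPM in B2, 11.6 CPM in B1, 9.09 CPM in B13 and under 1 CPM in the other 6 tumors. Its call (adjusted p = 0.0059, edgeR) was lost on leaving out any 1 line, and on leaving out any of 6 tumors, B2 among them, too few libraries had enough reads for a test. Sftpc, surfactant protein C, had 13230 CPM in B2 and a median of 0.252 CPM, and was not tested. Hemoglobin Hbb-bs was read at 1.27 to 1252 CPM in tumors and at 0 in every line. All 5 of 5 tested red cell genes were higher in tumors, and all 5 had at most 3 counts in every line. The 4 tested adipocyte genes were called as well (2 with line pairs summed, 1 with BNC lines only and 2 of 3 without the 5 tumors rich in muscle or lung RNA), with a sum of 7960 CPM in B45 and 36.1 CPM in B28. Of these 4, 2 had at most 3 counts in every line. Cfd, the adipocyte protease adipsin, lost its call on leaving out any of 9 libraries. The part that neighbouring tissue has in the counts of called genes was not tested beyond leaving these tumors out.

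Mesothelial identity was neither kept nor lost as a whole. The pleural lining makes mesothelin, keratins, podoplanin and the transcription factor Wt1. Of 16 tested mesothelial genes 3 were higher in tumors, a share not above the 22.7% of all tested genes, and 13 did not pass the test. Wt1 was at 40.4 to 283 CPM in tumors (median 91.1) and at 72.0 to 123 CPM in lines (median 93), a log2 difference of 0.23 ± 0.45 (adjusted p = 0.679, edgeR). All 6 lines therefore read Wt1 within the range of the tumors.

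Msln, mesothelin, was at 43.1 to 1439 CPM in tumors (median 581) but differed among lines, with 0.206 CPM in JB81, 0.411 in JB91, 223 in JB97, 842 in JB87, 1924 in JB84 and 2015 in JB93. In JB81 and JB91, 12 of the 16 genes lay below all tumors, among them Krt8 and Bnc1. In JB84 and JB93 5 of 16 lay below and 2 above all tumors. Pdpn, podoplanin, was at 0.288 CPM in JB81 and 219 CPM in JB87. The 3 called genes were Aldh1a2, which makes retinoic acid in the lining (4.08 to 181 CPM in tumors, 0 to 0.165 CPM in lines, log2 difference 9.59 ± 1.14, adjusted p = 8.19e-06, edgeR), Nkain4 (4.60 ± 0.80) and the Wnt agonist Rspo1 (4.28 ± 1.06), whose call was lost without the 5 tumors rich in muscle or lung RNA.

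**Figure D4:**
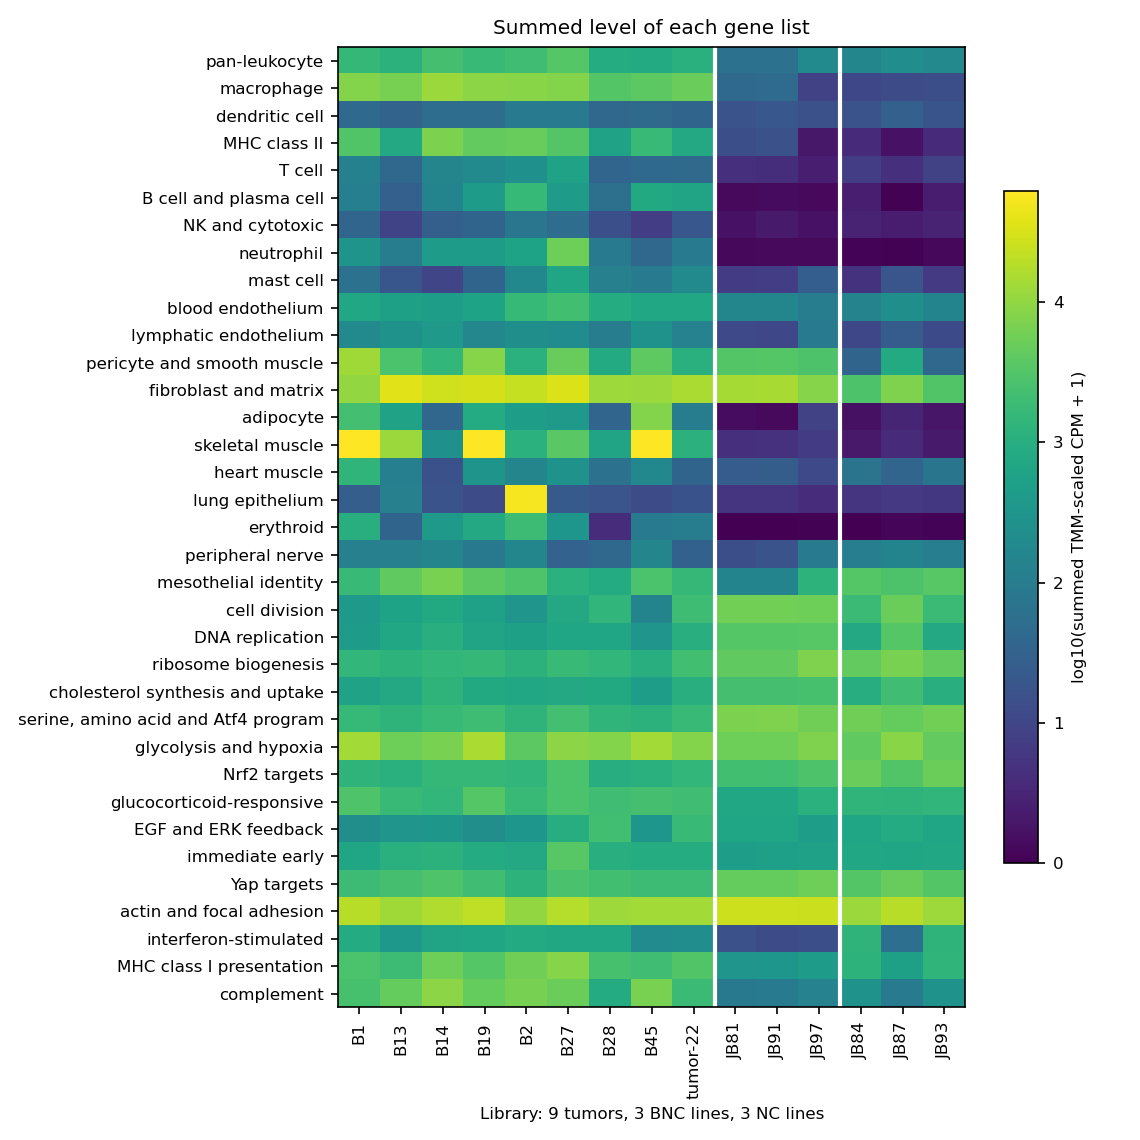
Summed level of each gene list in each library, as the log10 of summed TMM-scaled CPM plus 1 (color), with tumors, BNC lines and NC lines set apart by white lines. The macrophage sum is at most 45.7 CPM and the skeletal muscle sum at most 5.74 CPM in any line, lung epithelium is bright in B2, the mesothelial sum is low in JB81 and JB91, and the interferon-stimulated sum is high in JB84 and JB93 and low in the other 4 lines.

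Genes of cell division were higher in lines. Of 24 genes 21 were higher in lines, none was higher in tumors, and the median difference was 2.56 on the log2 scale, against 12.4% of all tested genes called higher in lines. Mki67, the Ki-67 antigen of cycling cells (chr7:135689784-135716361), was at 20.1, 84.2 and 216 CPM in the lowest, median and highest tumor and at 256, 797 and 979 CPM in the lowest, median and highest line (2.75 ± 0.46 higher in lines, adjusted p = 0.000162, edgeR). Top2a, topoisomerase II of dividing cells (chr11:98992943-99024189), was at 12.8, 68.2 and 278 CPM in the lowest, median and highest tumor and at 299, 749 and 831 CPM in the lowest, median and highest line (2.77 ± 0.57 higher in lines, adjusted p = 0.000851, edgeR). Both genes were higher in every line than in any tumor, with a narrow gap between the lowest lines and the highest tumors.

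The narrow gap came from a pair of lines and a pair of tumors. The cell division list summed to 1851 CPM in JB84 and 1820 CPM in JB93 and to 5182 to 5815 CPM in the other 4 lines. Among tumors it was highest in tumor-22 (1981 CPM) and B28 (1397 CPM) and lowest in B45 (144 CPM). JB84 and JB93 were thus below tumor-22. In JB81, JB91, JB97 and JB87 all 24 genes lay above all tumors, whereas this held for 9 genes in JB84 and 11 in JB93. With NC lines only, 3 of 24 genes were called, and without the 5 tumors rich in muscle or lung RNA 9 were.

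DNA replication genes split the same lines. Of 20 genes 16 were higher in lines, against 12.4% of all tested genes. The count was 2 without the 5 tumors rich in muscle or lung RNA and 2 with NC lines only. The median difference was 1.76. Mcm2, part of the replicative helicase, was at 14.7 to 61.7 CPM in tumors and 76.3 to 341 CPM in lines (2.53 ± 0.36 higher in lines, adjusted p = 4.04e-05, edgeR). Rrm2, the small subunit of ribonucleotide reductase, was at 8.37 to 60.2 CPM in tumors and 60.9 to 417 CPM in lines (2.99 ± 0.48, adjusted p = 0.000109, edgeR). All 20 genes lay above all tumors in JB81, JB91, JB97 and JB87, and 2 of 20 did so in JB84 and JB93. Ezh2, the methyltransferase of polycomb complex PRC2, was also above all tumors in every line, with 14.2 to 47.8 CPM in tumors and 58.5 to 156 CPM in lines (2.06 ± 0.30, adjusted p = 5.71e-05, edgeR).

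Many genes of mitosis carry a short element known as the cell cycle genes homology region, with the core TTTGAA, at which repressor and activator complexes of the cycle bind. Promoters of the members described here are shown from RefSeq (GRCm38.p6, 250 bases before to 50 bases after the start site), with TTTGAA on either strand in capitals. The first is at chr7:135716330-135716629 and the second at chr11:99024140-99024439, both on the minus strand.
Mki67: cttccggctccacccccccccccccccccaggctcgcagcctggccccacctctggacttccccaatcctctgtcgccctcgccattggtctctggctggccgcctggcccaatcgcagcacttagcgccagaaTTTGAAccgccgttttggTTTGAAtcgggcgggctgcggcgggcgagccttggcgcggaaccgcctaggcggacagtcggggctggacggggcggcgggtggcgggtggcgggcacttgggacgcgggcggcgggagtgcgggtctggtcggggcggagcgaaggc
Top2a: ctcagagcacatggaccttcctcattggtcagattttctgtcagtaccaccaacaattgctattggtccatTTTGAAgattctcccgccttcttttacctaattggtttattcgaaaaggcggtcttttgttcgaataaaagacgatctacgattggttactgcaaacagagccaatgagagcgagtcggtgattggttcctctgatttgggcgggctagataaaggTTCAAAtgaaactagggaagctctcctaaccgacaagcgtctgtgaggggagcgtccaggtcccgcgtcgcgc
In Mki67 the matches began 116 and 98 bases before the start site, and in Top2a 179 and 23 bases before it. Of 19 cell division genes with a promoter entry 14 held TTTGAA in a listed promoter (73.7%), against 20.2% of all 27025 genes. The match says nothing about binding in these samples.

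Ribosome biogenesis genes were higher in all 6 lines. Of 20 genes 18 were higher in lines, against 12.4% of all tested genes. The count was 14 without the 5 tumors rich in muscle or lung RNA and 15 with NC lines only. The median difference was 1.75. In 15 of the 20 genes every line lay above every tumor, against 9.59% of all tested genes. Ncl, the nucleolar protein nucleolin (chr1:86344719-86359400), was at 258, 390 and 459 CPM in the lowest, median and highest tumor and at 1295, 1313 and 2096 CPM in the lowest, median and highest line (2.03 ± 0.20 higher in lines, adjusted p = 1.35e-06, edgeR). Nop58, a core protein of box C/D small nucleolar RNPs, was 2.37 ± 0.26 higher and Ddx21, a nucleolar RNA helicase, 2.36 ± 0.21 higher. Npm1, nucleophosmin, was at 211 to 901 CPM in tumors and 966 to 1895 CPM in lines (1.54 ± 0.29, adjusted p = 0.000455, edgeR), a call lost without the 5 tumors rich in muscle or lung RNA. The list summed to 1020 to 2233 CPM in tumors and 4195 to 7476 CPM in lines, and JB84 and JB93 (4436 and 4464 CPM) did not stand apart here.

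Genes of amino acid synthesis and uptake were higher in lines. Atf4 is the transcription factor that turns on amino acid synthesis, transport and tRNA charging when amino acids are short. Of 24 genes of the serine, amino acid and Atf4 program 19 were higher in lines and none in tumors, 18 without the 5 tumors rich in muscle or lung RNA and 16 with NC lines only. The median difference was 2.03, and in 16 genes every line was above every tumor. Of all tested genes, 12.4% were called higher in lines, and 9.59% had every line above every tumor. Asns, asparagine synthetase (chr6:7675169-7693254), was at 15.9, 20.4 and 43.2 CPM in the lowest, median and highest tumor and at 203, 346 and 395 CPM in the lowest, median and highest line (3.64 ± 0.27 higher in lines, adjusted p = 6.6e-08, edgeR). The amino acid exchanger Slc7a5 (chr8:121881150-121907694) was at 16.9, 29.8 and 56.0 CPM in the lowest, median and highest tumor and at 341, 452 and 718 CPM in the lowest, median and highest line (3.91 ± 0.33, adjusted p = 2.83e-07, edgeR). The lowest line was several times above the highest tumor in both genes.

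Further members followed with less room. Phgdh, the first enzyme of serine synthesis, was at 15.7 to 77.7 CPM in tumors and 137 to 343 CPM in lines (2.85 ± 0.33, adjusted p = 6.19e-06, edgeR). Aars, alanyl-tRNA synthetase (chr8:111033144-111057664), was at 72.1, 107 and 138 CPM in the lowest, median and highest tumor and at 388, 514 and 968 CPM in the lowest, median and highest line (2.53 ± 0.23, adjusted p = 6.23e-07, edgeR). Atf4 itself was not called, with 167 to 555 CPM in tumors and 298 to 539 CPM in lines (0.54 ± 0.25 higher in lines, adjusted p = 0.0833, edgeR), and the groups overlapped. Slc7a11, the cystine importer, did not pass the test either (adjusted p = 0.159, edgeR).

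Promoters of a metabolic gene and of a tRNA synthetase gene of this list are shown from RefSeq (GRCm38.p6, same window), with TGATGNAAN, a form of the element bound by Atf4 and its C/EBP partners, in capitals on either strand (chr6:7693160-7693459, minus strand, and chr8:111033592-111033891, plus strand).
Asns: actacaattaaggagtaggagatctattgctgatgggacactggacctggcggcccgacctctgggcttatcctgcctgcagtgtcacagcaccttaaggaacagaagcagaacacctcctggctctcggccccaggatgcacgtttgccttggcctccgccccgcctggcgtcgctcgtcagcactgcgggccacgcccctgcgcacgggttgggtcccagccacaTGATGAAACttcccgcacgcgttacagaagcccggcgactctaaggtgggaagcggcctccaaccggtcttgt
Aars: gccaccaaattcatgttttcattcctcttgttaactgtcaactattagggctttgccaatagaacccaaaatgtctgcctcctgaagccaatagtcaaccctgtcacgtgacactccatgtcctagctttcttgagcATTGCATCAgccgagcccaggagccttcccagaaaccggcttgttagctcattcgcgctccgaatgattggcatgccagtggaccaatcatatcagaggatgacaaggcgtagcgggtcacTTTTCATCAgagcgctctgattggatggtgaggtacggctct
This motif was in a listed promoter of 7 of 20 genes of the list (35%), against 4.5% of all 27025 genes. The list was compiled from genes known to answer to Atf4, so this share describes the list and not the samples.

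Sterol and redox genes moved in part. Of 24 genes of cholesterol synthesis and uptake 12 were higher in lines and 1 in tumors, beside 12.4% and 22.7% of all tested genes. These counts were 3 and 0 without the 5 tumors rich in muscle or lung RNA. Hmgcs1, which makes the substrate of the rate-limiting step, was at 44.5 to 114 CPM in tumors and 75.3 to 271 CPM in lines (1.33 ± 0.29, adjusted p = 0.00115, edgeR), a call lost without those tumors. JB84 and JB93 held 972 and 1002 CPM of the summed list, within the tumor range of 493.4 to 1299 CPM, and the other 4 lines held 2140 to 2465 CPM. Tm7sf2, a sterol reductase, was the member higher in tumors (1.07 ± 0.23, adjusted p = 0.00133, edgeR), and it fell under the 2-fold limit without B14 or without JB87.

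Among 13 targets of Nrf2, the factor of the oxidative stress response, 7 were higher in lines, against 12.4% of all tested genes. The count was 5 without the 5 tumors rich in muscle or lung RNA and 3 with BNC lines only. Txnrd1, thioredoxin reductase, was at 60.0 to 187 CPM in tumors and 330 to 1472 CPM in lines (2.85 ± 0.36, adjusted p = 1.6e-05, edgeR). Gclc, which starts glutathione synthesis, was at 11.3 to 47.5 CPM in tumors and 128 to 557 CPM in lines (3.83 ± 0.41, adjusted p = 2.8e-06, edgeR). Neither gene overlapped between the groups, and the list was highest in JB84 and JB93 (4994 and 5154 CPM, against 2217 to 3135 CPM in the other lines and 975.5 to 2699 CPM in tumors).

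**Figure D5:**
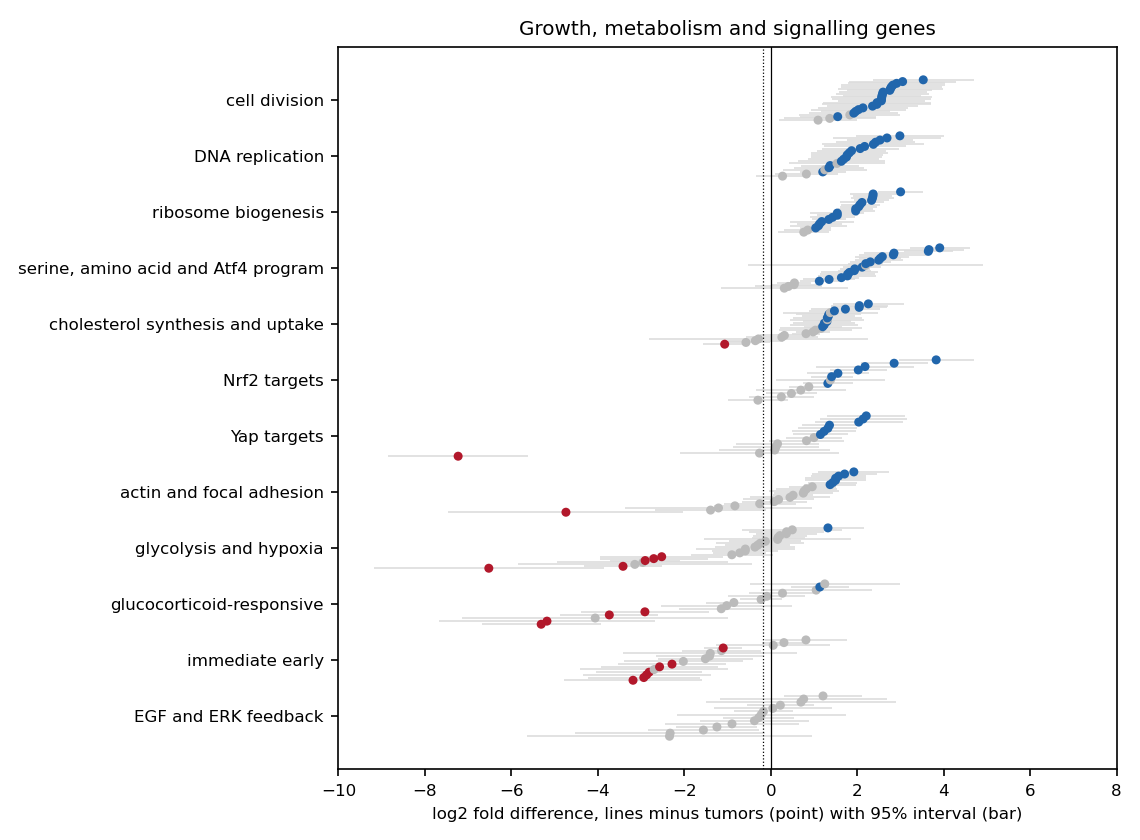
Log2 difference of lines over tumors (x axis, points) with its 95% interval (gray bars) for each tested gene of 12 growth, metabolism and signaling lists; blue points were called higher in lines, red points higher in tumors, gray points were not called, the solid line marks 0 and the dotted line marks the median of all genes tested. Cell division, DNA replication, ribosome biogenesis and amino acid genes lie to the right of 0, whereas immediate early genes lie mostly to the left and EGF feedback genes lie on both sides.

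Of 22 genes of glycolysis and hypoxia 5 were higher in tumors (2 with NC lines only) and 1 in lines, and the share higher in tumors was that of all tested genes, 22.7%. Bnip3, a mitophagy receptor induced by hypoxia, was at 58.4 to 318 CPM in tumors and 10.4 to 33.7 CPM in lines (3.42 ± 0.43, adjusted p = 1.24e-05, edgeR). Car9, the carbonic anhydrase known as a hypoxia marker, was at 0.872 to 40.4 CPM in tumors and 0 to 0.253 CPM in lines (6.52 ± 1.25, adjusted p = 0.000463, edgeR). The groups did not overlap in either gene. Aldoa, the muscle aldolase, was called higher in tumors (2.52 ± 0.67, adjusted p = 0.00485, edgeR), but its difference was 0.82 without the 5 tumors rich in muscle or lung RNA. Pkm, pyruvate kinase, had a tumor over line difference of -0.21 with a 95% interval of -0.83 to 0.41. Eno1 was the member higher in lines (1.32 ± 0.39, adjusted p = 0.00924, edgeR), a call that was lost on leaving out any of 12 libraries, for example JB87 (adjusted p = 0.0304, edgeR).

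The medium held hydrocortisone and EGF. Hydrocortisone acts through the glucocorticoid receptor, and of 14 glucocorticoid-responsive genes 1 was higher in lines and 4 in tumors (2 with NC lines only), beside 12.4% and 22.7% of all tested genes. Fkbp5, a co-chaperone of that receptor, was the gene higher in lines (66.2 to 215 CPM in tumors, 124 to 420 CPM in lines, 1.14 ± 0.32, adjusted p = 0.00667, edgeR), and its call was lost on leaving out any of 10 libraries, for example JB87 (adjusted p = 0.018, edgeR). Mt1 and Mt2, metallothioneins that also answer to metals, were higher in tumors by 3.73 ± 0.54 and 5.31 ± 0.65. Of 14 feedback genes of EGF and ERK signaling 0 were called by edgeR and 1 by DESeq2, 4 had an unadjusted p under 0.05, and at an adjusted p under 0.05 and more than 2-fold edgeR called 2 higher in tumors and 1 higher in lines. Dusp6, an ERK phosphatase, was at 57.5 to 720 CPM in tumors and 91.8 to 265 CPM in lines (0.38 ± 0.60 higher in tumors, adjusted p = 0.613, edgeR).

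Immediate early genes respond within minutes to stress and handling. They were higher in tumors in 7 of 16 cases (2 with line pairs summed), against 22.7% of all tested genes. Junb was at 59.9 to 588 CPM in tumors and 8.31 to 42.6 CPM in lines (2.81 ± 0.57, adjusted p = 0.000764, edgeR), without overlap. Ier3 differed by 3.19 ± 0.75, and Fos did not pass the test (2.02 ± 0.65, adjusted p = 0.0155, edgeR). The list summed to 3578 CPM in B27 and to at most 1206 CPM in the other tumors.

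Targets of Yap, the effector that merlin and the Hippo kinases hold back, were higher in lines in 7 of 14 cases and in tumors in 1. Over all tested genes these shares were 12.4% and 22.7%. None of the 7 passed in the smaller comparison without the 5 tumors rich in muscle or lung RNA, by edgeR, where the list's median log2 difference was -0.99, against -1.07 with all tumors (tumor over line). Amotl2, a feedback inhibitor of Yap, was at 42.2 to 339 CPM in tumors and 266 to 1273 CPM in lines (2.14 ± 0.48, adjusted p = 0.00143, edgeR). Ccn2, the classic target, had a tumor over line difference of -0.16 with a 95% interval of -1.12 to 0.81 (adjusted p = 0.788, edgeR). Nt5e, the ecto-nucleotidase CD73, went against the list and was almost absent from lines (13.1 to 118 CPM in tumors, 0.0411 to 0.822 CPM in lines, 7.23 ± 0.77 higher in tumors, adjusted p = 2.54e-06, edgeR).

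Of 20 actin and focal adhesion genes 7 were higher in lines and 1 in tumors, beside 12.4% and 22.7% of all tested genes. By edgeR 0 passed in either direction without the 5 tumors rich in muscle or lung RNA or with NC lines only. The median log2 difference of tumor over line was -0.76 with all tumors, -0.39 without those tumors and -0.33 with NC lines only. Flna, filamin A, was at 470 to 1445 CPM in tumors and 1178 to 5139 CPM in lines (1.92 ± 0.39, adjusted p = 0.000677, edgeR). Tpm2, a tropomyosin of muscle, was the member higher in tumors (4.74 ± 1.28, adjusted p = 0.00548, edgeR), a call lost without JB84, JB87 or JB93. Actb, beta actin, had a tumor over line difference of -0.08 with a 95% interval of -0.84 to 0.67.

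Immune response genes of the tumor cells themselves and of other cells cannot be separated in bulk tumors. The lines give the levels of cultured cells, and no label ties a line to 1 of these tumors. Of 14 interferon-stimulated genes 1, the chemokine gene Cxcl10, was called higher in tumors (3.85 ± 1.06, adjusted p = 0.00621, edgeR), a call lost without B14, JB87 or JB97. The list summed to 200 to 886 CPM in tumors, 1319 CPM in JB84, 1331 CPM in JB93, and 12.3 to 56.1 CPM in the other 4 lines. Isg15, a ubiquitin-like antiviral protein, was at 5.96 to 75.6 CPM in tumors, 139 and 151 CPM in JB84 and JB93, and 0.0998 to 2.23 CPM in the other 4 lines. In those 4 lines all 14 genes lay below all tumors, and in JB84 and JB93 8 of 14 lay above all tumors, so 1 mean over the 6 lines describes neither set. With BNC lines only, 14 of 14 genes were higher in tumors.

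Class I MHC presentation was higher in tumors in 7 of 10 genes (4 with NC lines only), against 22.7% of all tested genes. H2-K1, a class I heavy chain, was at 392 to 2058 CPM in tumors and 21.8 to 191 CPM in lines (3.36 ± 0.65, adjusted p = 0.000519, edgeR). B2m, its light chain, was at 475, 1011 and 1841 CPM in the lowest, median and highest tumor and at 170, 197 and 471 CPM in the lowest, median and highest line (2.02 ± 0.38, adjusted p = 0.000423, edgeR). The groups were adjacent in B2m without overlap. Of 11 tested complement genes 10 were higher in tumors, against 22.7% of all tested genes. They were led by Serping1, the C1 inhibitor (122 to 1008 CPM in tumors, 0 to 0.308 CPM in lines, 12.17 ± 0.98, adjusted p = 1.84e-07, edgeR). C3, the central component, was at 257, 1895 and 4467 CPM in the lowest, median and highest tumor and at 6.95, 15.7 and 85.4 CPM in the lowest, median and highest line (6.36 ± 0.85).

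Without regard to the lists, 10 genes had the largest folds in the line direction, out of the called genes in which all lines lay above all tumors. Sp8, a zinc finger factor of limb and brain development (chr12:118846329-118852576), had no read in any tumor and 7.46, 17.8 and 34.5 CPM in the lowest, median and highest line, at least 22.8-fold higher (adjusted p = 8.33e-06, edgeR). Ptchd4, a Patched-like protein, had 7 reads over 9 tumors and 5.47 to 60.8 CPM in lines, a ratio of 637 with a 95% counting interval of 309 to 1585. Igf2bp1, a fetal RNA-binding protein, was at 0.227 to 2.40 CPM in tumors and 22.9 to 75.4 CPM in lines (5.74 ± 0.50, adjusted p = 4.34e-07, edgeR). Every line was above every tumor in these genes.

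Tbx20, a heart factor, and Pax3, a factor of neural crest and muscle precursors, were 5.55 ± 0.94 and 5.35 ± 0.98 higher in lines. Ano3, Elavl2, Serpinb9b and Gm13230 were also among the 10, and so was Ccnd2. Ccnd2, cyclin D2, which drives entry into the cell cycle (chr6:127125162-127152193), was at 19.2, 25.5 and 91.9 CPM in the lowest, median and highest tumor and at 502, 754 and 1716 CPM in the lowest, median and highest line (4.80 ± 0.44, adjusted p = 6.85e-07, edgeR). Fat1, a giant cadherin (chr8:44935447-45052257), was at 35.8, 73.5 and 263 CPM in the lowest, median and highest tumor and at 725, 1374 and 4098 CPM in the lowest, median and highest line (4.37 ± 0.56, adjusted p = 1.55e-05, edgeR). Myh9, nonmuscle myosin, had a median of 430 CPM in tumors and 3140 CPM in lines (2.19 ± 0.42, adjusted p = 0.000487, edgeR). Lox, which crosslinks collagen, and Hspg2, the basement membrane proteoglycan perlecan, were 1.84 ± 0.34 and 1.61 ± 0.25 higher in lines, without overlap. The calls of Myh9 and Elavl2 were lost without the 5 tumors rich in muscle or lung RNA.

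Whole-transcriptome likeness ranked the tumors by their nearness to the lines. Over the tested genes, Pearson's r of log2 CPM was 0.614 to 0.806 between a tumor and a line, 0.752 to 0.953 between tumors and 0.867 to 0.999 between lines, as a description across genes. The tumors with the highest median r to the lines were B28 (0.775) and tumor-22 (0.770), which also had the highest cell division sums and were among the 4 tumors with the lowest T cell sums. B13 (0.72) and B45 (0.637) were also among those 4. The lowest median r was that of B1 (0.624), the library with the fewest counts, followed by B45, with 21851974 counts.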

How the data were processed

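The authors deposited 1 table of raw read counts per gene. Per the submitters' processing notes, TopHat2 2.0.12 and HTSeq were used with the mm10 genome; single-end reads came from poly-A RNA. The annotation release and strand setting are not given in the sources used here, so antisense, overlapping and near-identical genes (globins, H2 genes, metallothioneins) are uncertain. Tumor columns could not be tied to a labelled genotype, and the genotype of each named line is that in the column heads of the study's supplementary table. DNA and chromatin files were not used. Gene symbols were matched for 98.5% of gene IDs.

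Counts were filtered (filterByExpr, minimum count 10), TMM-scaled and tested with edgeR 4.0.16 (quasi-likelihood, R 4.3.3) over 9 tumors and 6 lines without covariates. Calls needed a Benjamini-Hochberg adjusted p under 0.01 and a fold above 2. DESeq2 1.42.0 was an alternative, next to other scalings, filters, thresholds, line sets and leaving out each library. Where an arm had no count, a lower bound against 3 counts in its shallowest library is given, and where each library had at most 3 counts, the ratio has an exact Poisson interval covering counting error only. A count of 3 was 0.123 to 0.231 CPM in lines and 0.126 to 0.872 CPM in tumors. The model was tested on simulated data. Figures used Python 3.11.15 and matplotlib 3.10.9.

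The members, gene lists, motifs and promoters shown were chosen with earlier results of these data known. The text names genes chosen from Ptprc, Adgre1, Pecam1 and Cd3e, the targeted and stained genes, per list the 4 tested members of highest mean level and members against the list's direction, the 10 largest folds per direction among called genes without overlap and a mean of at least 10 CPM, and the 5 largest CPM differences per direction. Not every gene of this rule is printed, and further list members were named after their values were seen.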

Additional observations from a re-analysis of the deposited data

Results flagged for a closer look

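Of 76 sets of values with 4 to 10 libraries, 9 had 1 library far from the others, where chance gives about 1 in 20. Tumor B1 stood apart in 4 of them. Its TMM factor was 0.422, against a median of 1.06 over the tumors. Gm42418 took 24.7% of its counts (median 0.399%), Lars2 took 13.8% (median 0.199%) and mitochondrial genes took 17.3% (median 3.53%). Tumor B2 stood apart in the lung epithelium sum, at 15.7 on the log2(CPM + 1) scale against a median of 4.17. Tumor B27 stood apart in the Nrf2 target sum (11.4, median 10.5) and in the immediate early sum (11.8, median 9.89) on the same scale. Tumor B45 stood apart in the sum of the targeted genes (7.64, median 7.10). Among lines, JB87 stood apart in the dendritic cell sum (4.89, median 4.10).

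Pfkp, the platelet form of phosphofructokinase, lay on opposite sides of the tumors in the lines of each genotype. It was at a median of 27.5 CPM in BNC lines (26.0 to 30.6 CPM) and at 115 to 152 CPM in NC lines, with 32.3 to 107 CPM in tumors. The difference between BNC and NC lines was not tested.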

How the results depend on the processing

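Leaving out each library in turn gave 2944 to 3231 genes higher in tumors and 1542 to 1943 higher in lines. DESeq2, which tested 25061 genes against 14383, called 5075 genes higher in tumors and 1865 higher in lines, and a minimum of 10 counts in every library left 1441 and 1073 calls, with fewer genes tested. Alternatives chosen after seeing the data were to leave out the 5 tumors rich in muscle or lung RNA (1843 and 879) and to sum the close line pairs as well (1129 and 507), both with fewer samples. Of 486 list and leading genes tested, 330 were called. Of these 330, 0 changed sign under any alternative run, 31 lost the call on leaving out 1 library and 94 without those 5 tumors. The call was lost by 37 with line pairs summed, 49 with BNC lines only and 112 with NC lines only. With line pairs summed and those 5 tumors left out, 147 lost it. Genes that were no longer tested in a run were not counted as losses. Over all called genes, 3 had the other sign with BNC lines only and 4 with NC lines only. With BNC lines only, genes that were not called over all lines turned to the tumor direction, namely Ifi44 (8.64), Ifit1 (7.03), Ifit3 (6.05), Isg15 (7.34), Mx2 (5.92), Pfkp (1.20) and Usp18 (8.59, log2 tumor over line); the cause was not tested. RLE scaling gave 3401 and 1604 calls.

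No paired analysis was possible because the tumor columns carry no replicate number shared with the lines. A covariate for the prefix of the column names was not fitted, since no prefix held both tumors and lines. The shallowest tumor, B1, limits what can be read of weak genes: 3 counts were 0.872 CPM there.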

Other observations

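In 16 tested genes the BNC lines all lay on one side of all tumors and the NC lines all lay on the other. They were found after the values were seen, and the difference between BNC and NC lines was not tested. Ptprf, a receptor phosphatase of cell contacts, was at 393 CPM in JB81, 426 in JB91 and 432 in JB97, at 0.506 CPM in JB84, 0.814 in JB93 and 16.2 in JB87, and at 30.2 to 326 CPM in tumors. Fbn2, the microfibril protein fibrillin 2, was at 301 CPM in JB81, 298 in JB91 and 36.7 in JB97, at no more than 1.54 CPM in an NC line, and at 2.29 to 20.3 CPM in tumors. The other 14 genes were low in BNC lines and high in NC lines. Lgals9, a galectin induced by interferon, was one of them, with 20.0 to 38.9 CPM in BNC lines, 154 to 364 CPM in NC lines and 45.8 to 102 CPM in tumors.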
